A study of Caenorhabditis elegans with 54 samples.

Results

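The ttr genes of Caenorhabditis elegans encode transthyretin-like proteins, and they are described here as a family across 9 ribosome fractions, each set against total RNA of the same strain. A gene was taken as a member when its WormBase symbol begins with ttr- and the annotation lists it as protein-coding. The annotation holds 58 such genes, of which 57 were listed in at least 1 of the 9 deposited tables and 53 in all 9, among 20728 distinct genes listed in the series. The gene listed in none was ttr-19. Each member was chosen by its symbol, and the family as a whole was selected on its fraction over total RNA ratios in these libraries, so the ratios below are a description of the members.

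Transthyretin-like proteins are a large nematode family of small, mostly secreted proteins that resemble vertebrate transthyretin, the carrier of thyroid hormone and retinol in blood, and they are distinct from the hydroxyisourate hydrolases, enzymes of urate breakdown that share the same fold and that worms also encode. Most members have no published function. TTR-52 bridges phosphatidylserine on the surface of dying cells to the engulfment receptor CED-1, TTR-11 takes part in the fusion of severed axons, TTR-33 protects dopamine neurons against oxidative damage, and the ttr-39 promoter is widely used to mark GABAergic D-type motor neurons. A secreted protein can act away from the cell that makes it, and a ribosome IP reports the cell that makes it.

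The study pulled down ribosomes carrying FLAG-tagged RPL-22, a protein of the large ribosomal subunit, and sequenced the RNA bound to them beside total RNA of the lysate. Tagged RPL-22 was made under the nep-17 promoter for intestine (strain WBM1470, wbmIs131), the myo-3 promoter for muscle (WBM1339, wbmIs118), the rab-3 promoter for neurons in the strain named neurons A (MSD473, wbmls99) and in the strain named neurons B (WBM1471, wbmIs133), and the eft-3 promoter for soma (WBM1364, wbmIs119). In the ubiquitous strain (MSD470, rpl-22(wbm58)) the endogenous gene carried the tag, and this strain also gave sucrose gradient RNA from polysomes and, separately, RNA pooled from 60S, 80S and polysome fractions. Untagged wild-type Bristol N2 worms gave polysome RNA only. All worms were day 1 adults kept at 20 °C, with about 12000 worms per replicate and 1 mM cycloheximide, which stalls ribosomes, for the gradients. Each of the 9 experiments had 3 fraction and 3 total RNA libraries, 54 in all, and nothing in the labels tells whether the replicates came from cultures grown apart.

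The values are the authors' normalized counts, which were scaled within each table, so each fraction is set against its own total RNA. Summed normalized counts ran between 16486900 and 85848000 per library. Of the libraries, intestine IP replicate 2 listed 6112 genes at 0 and neurons A IP replicate 3 listed 7896, against a median of 591 over all libraries. The markers of each tagged tissue were higher in its own IP for 11 of 11 intestine genes, 10 of 10 muscle genes, 10 of 11 neuronal genes in neurons A and 11 of 11 in neurons B. The intestine list was also higher in part in the neurons B IP, where 6 of 11 intestine markers were higher, with summed normalized counts of 1473699 to 2990266 in the IP against 842931 to 1087756 in total RNA. There 3 of 6 glia markers were higher too, and 2 of 4 gonadal sheath and spermatheca markers, with 1 lower. The muscle, epidermis, pharynx, germline, sperm and coelomocyte lists had 0 markers higher there. The part of the cells behind these lists in the neurons B calls was not tested. Ratios below are differences of mean log2(normalized count + 1), fraction minus total RNA, over 3 and 3 libraries. The value after ± is limma's moderated standard error unless marked SD. In it a gene's own spread is drawn towards the trend over all genes. A member is called higher or lower when limma's adjusted p, taken over all genes tested in that table, was under 0.05. In these whole-worm lysates, fewer cells of a type and less RNA per cell cannot be told apart, and a tissue IP over total RNA also cannot tell the place where a transcript is made from its ribosome load there.

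Read over the intestine, muscle and soma IPs, 9 members were called higher in the muscle IP and not in the intestine IP, 7 in both, 5 in the intestine IP and not in the muscle IP, 22 in the soma IP and in neither tissue, and 15 in none of these 3 IPs. Of the 15, 4 were tested in all 3 IPs and 6 in none of them. Over the 47 members tested in all 3, the first of these classes held 19.1%, against 18.3% of all genes tested in all 3, which is near the background. The members called higher in both tissues were 14.9% of the family, against 5.53% of all genes, and those higher in intestine and not in muscle were 10.6%, against 12%. The soma class held 46.8%, against 10.2%, and the 4 members tested and higher in none held 8.51%, against 54%. These classes are a reading of the calls and carry no test of their own.

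**Figure D1:**
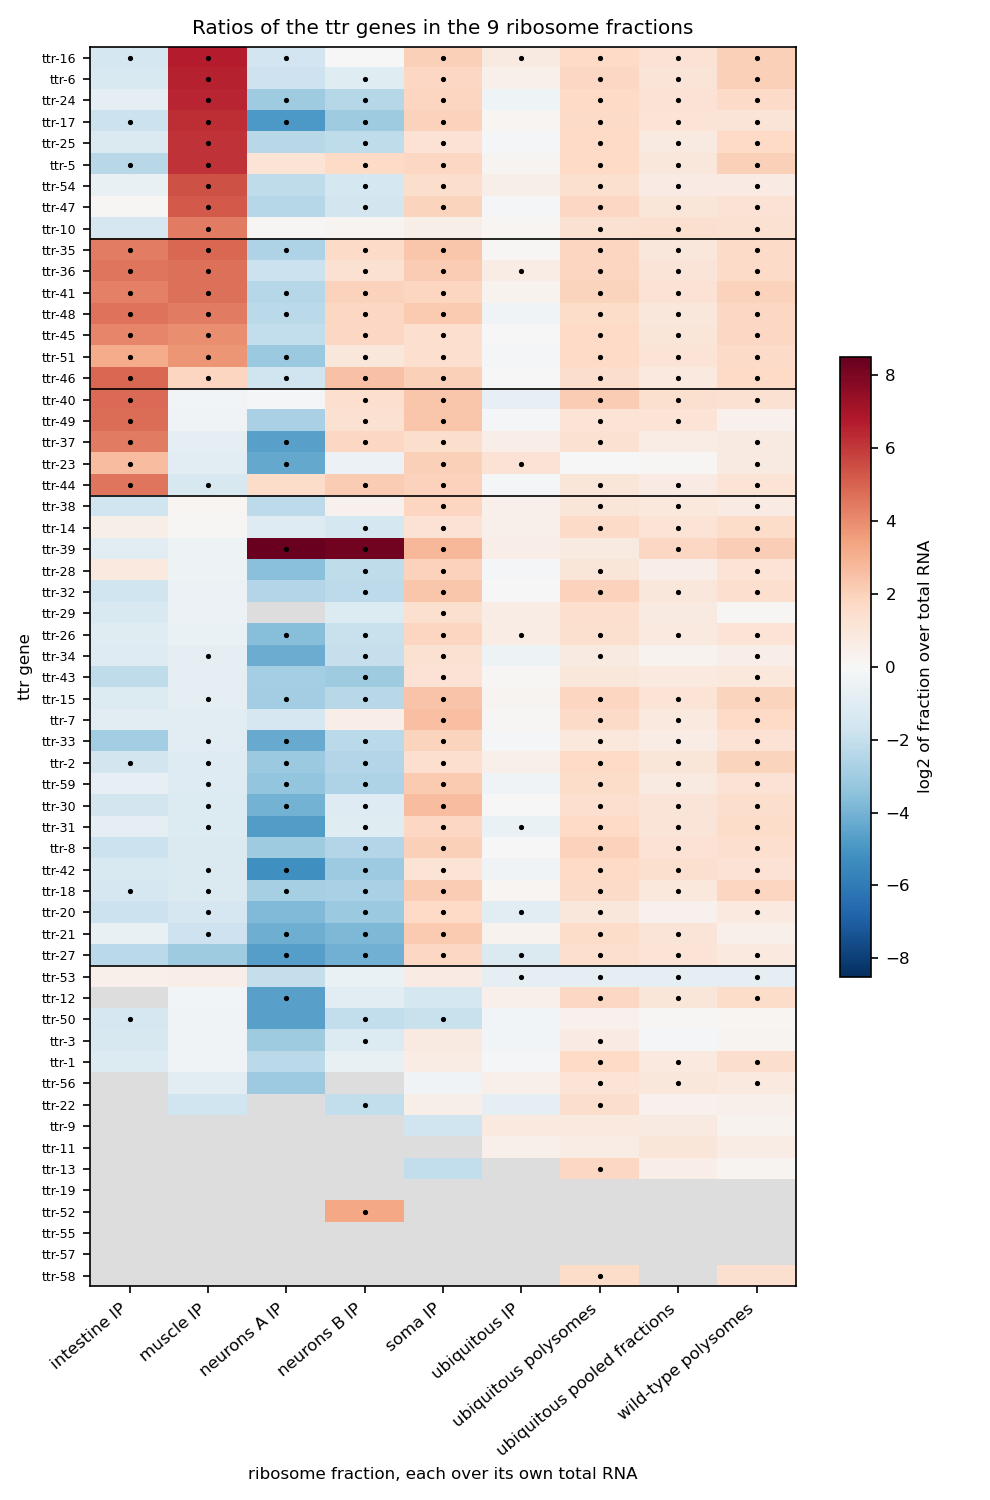
Ratio of every ttr gene (rows) in the 9 ribosome fractions (columns), as log2 of fraction over its own total RNA, red for higher and blue for lower, with a dot where the call passed adjusted p under 0.05 and grey where a member was not listed or fell under the minimum mean of 10. Black lines part the 5 classes; the muscle column reaches 6.70 for ttr-16 and the neurons A column 8.37 for ttr-39.

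Levels in total RNA, per kilobase of exon, gave a steep order, taken here as the median over 9 tables that were scaled apart. That median was 18038 normalized counts per kilobase for ttr-15, 14180 for ttr-16, 8975 for ttr-2, 5293 for ttr-51, 4928 for ttr-46 and 3696 for ttr-41, and for ttr-15 the tables ran between 9464 and 36359. Together these 6 genes held between 59.6% and 67.8% of the family's total RNA level per kilobase in each table. Rank 1 or 2 belonged to ttr-15 and ttr-16 in every table, with either of them first, and ttr-46 was always at rank 5. At the other end ttr-52 had the lowest median, 4.72 normalized counts per kilobase. The genes are short, with 460 to 1415 exon bases and a median of 572.

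In the muscle IP, 16 of the 50 members tested were called higher, 32.0% against 23.1% of all genes tested, and 12 were called lower, 24.0% against 13.1%. The median ratio of the members was -0.37, against -0.14 for all genes. The 16 higher members fell between 1.81 and 6.70. Every muscle IP library was above every total RNA library for these same 16 of the 50 members tested. That is 32.0%, against 27.3% of all genes tested, which is near the background. As a whole the family made up 1.65%, 2.31% and 2.40% of all normalized counts in the muscle IP libraries (replicates 1 to 3, the order used throughout), against 0.259%, 0.159% and 0.168% in their total RNA.

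The highest of them was ttr-16 (chromosome IV, 11063530 to 11064137, minus strand, WBcel235). It had 630437, 1197930 and 1204681 normalized counts in the muscle IP, against 12795, 8263 and 7581 in total RNA, a log2 ratio of 6.70 ± 0.30. The lowest muscle IP library was far above the highest total RNA library. Within the family's summed normalized counts ttr-16 took 57.6%, 60.5% and 59.9% in the muscle IP, against 15.8%, 17.1% and 16.4% in total RNA.

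Its neighbour ttr-17, on the same strand, had 38407, 67666 and 72132 normalized counts in the muscle IP, against 987, 583 and 663 in total RNA, a log2 ratio of 6.30 ± 0.29. On the X chromosome ttr-6 had 88029, 160722 and 159940 in the muscle IP, against 1863, 1315 and 1205 in total RNA, or 6.52 ± 0.27. The groups did not overlap for either gene, and muscle IP replicate 1 was the lowest of the 3 for both.

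Adjacent genes on chromosome V gave ratios of similar size. There ttr-24 had 85240, 163303 and 168886 normalized counts in the muscle IP, against 2169, 1231 and 1172 in total RNA, a log2 ratio of 6.51 ± 0.31. Beside it ttr-25 had 24411, 39575 and 39638 in the muscle IP, against 981, 330 and 336 in total RNA, or 6.14 ± 0.39. In both, total RNA replicate 1 was the highest of its group, as muscle IP replicate 1 was the lowest; without replicate 1 the ratios were 7.11 for ttr-24 and 6.89 for ttr-25.

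The least abundant of the strongly higher muscle members were ttr-5, ttr-54 and ttr-10. For ttr-5 the muscle IP held 14347, 26122 and 29114 normalized counts, against 529, 238 and 247 in total RNA, a log2 ratio of 6.13 ± 0.35, or 6.82 without replicate 1. The ratio was 5.42 ± 0.31 for ttr-54, 5.22 ± 0.28 for ttr-47 and 4.43 ± 0.31 for ttr-10. These 9 members, ttr-16 to ttr-10, were the ones called higher in muscle and not in intestine, where their ratios lay between -2.35 and 0.09. Of the epidermis markers, 0 of 9 were called higher in the muscle IP and 3 lower, with summed normalized counts of 42815 to 110136 in the IP against 134735 to 163272 in total RNA. Of the other lists there, 2 of 4 gonadal sheath and spermatheca markers were higher (median 0.59), 2 of 11 neuronal markers were higher and 2 lower, and 10 of 11 intestine markers were lower; their part in the members' ratios was not tested. The exons of ttr-16 overlap those of lin-3, an EGF-like growth factor gene on the opposite strand, whose own muscle ratio was 0.32; whether the counting used strand is not given in the sources used here.

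The 12 members called lower in the muscle IP lay between -1.78 (ttr-21) and -0.74 (ttr-34). The most abundant member in total RNA was among them: ttr-15 had 7061, 5661 and 6047 normalized counts in the muscle IP, against 14317, 9953 and 9582 in total RNA, a log2 ratio of -0.83. Another abundant member, ttr-2, had 2624, 1954 and 2084 in the muscle IP, against 6844, 4016 and 3648 in total RNA, or -1.08. Both were below total RNA in all libraries, yet neither call held without replicate 2, with ratios then of -0.84 for ttr-15 and -1.09 for ttr-2, and ttr-15 also lost its call without replicate 3, at -0.92. Lower calls numbered 6 without replicate 3, beside 319 of all 14644 genes. Scaling all libraries to an equal sum, which moved the median of all genes by -1.37, gave 15 higher and 33 lower. Over all 14681 genes, 1689 were then higher and 10452 lower.

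In the intestine IP, 12 of the 47 members tested were called higher, 25.5% against 17.8% of all genes, and 6 were called lower, 12.8% against 9.61%. The median ratio of the members was -1.03, against -0.42 for all genes. The 12 higher members lay between 2.64 and 4.87 on the log2 scale, and all the other members tested were at or below 0.85. The family made up 0.431%, 0.592% and 0.400% of all normalized counts in the intestine IP, against 0.169%, 0.232% and 0.177% in total RNA.

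Of these 12, 7 were also called higher in the muscle IP: ttr-35, ttr-36, ttr-41, ttr-45, ttr-46, ttr-48 and ttr-51. They lay between 3.15 and 4.87 in the intestine IP and between 1.81 and 4.90 in the muscle IP. In the intestine IP ttr-41 had 25013, 41006 and 17231 normalized counts, against 1287, 2036 and 948 in total RNA, a log2 ratio of 4.26 ± 0.42. In the muscle IP it had 47289, 64734 and 62793, against 3583, 1892 and 1782 in total RNA, or 4.65 ± 0.28. IP and total RNA libraries of ttr-41 stayed apart in both tissues.

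A neighbouring pair on chromosome IV and one on the X chromosome belonged to this group. The abundant member ttr-51 had 15085, 26891 and 22686 normalized counts in the intestine IP, against 1674, 2591 and 3006 in total RNA, a log2 ratio of 3.15 ± 0.34. In the muscle IP it had 38569, 71746 and 72635, against 7748, 3413 and 3110 in total RNA, or 3.75 ± 0.36, and 4.47 without replicate 1. Its neighbour ttr-45 had 4.17 ± 0.48 in the intestine IP and 3.93 ± 0.29 in the muscle IP. On the X chromosome ttr-36 had 4.54 ± 0.62 in the intestine IP and 4.70 ± 0.38 in the muscle IP, and the adjacent ttr-35 had 4.38 ± 0.55 in the intestine IP and 4.90 ± 0.29 in the muscle IP. The ratio of ttr-48 was 4.60 ± 0.30 in the intestine IP, with 11863, 15846 and 8923 normalized counts in the IP against 414, 561 and 504 in total RNA, and 4.43 ± 0.29 in the muscle IP.

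Within this group ttr-46 leaned to intestine. It had 62226, 118676 and 33295 normalized counts in the intestine IP, against 1899, 2741 and 1904 in total RNA, a log2 ratio of 4.87 ± 0.46, the highest of the family there. In the muscle IP it had 10724, 17298 and 16484, against 6532, 3470 and 3114 in total RNA, a ratio of 1.81 ± 0.30. The muscle ratio was lower than the intestine ratio by 3.05 ± 0.60 on the log2 scale, a difference called in the fit over the 12 libraries of both tissues; without replicate 1 it was -2.42 and not called. Scaled to an equal sum, the muscle ratio of ttr-46 was 0.42 and no longer called. Per kilobase ttr-46 was the most abundant member of the intestine IP, at 107367 ± 65299 normalized counts (SD, n = 3), and it took 38.2%, 39.9% and 26.3% of the family's normalized counts there, against 6.83%, 6.57% and 6.31% in total RNA.

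The remaining 5 intestine members, ttr-23, ttr-37, ttr-40, ttr-44 and ttr-49, were called higher in the intestine IP and lay between -1.39 and -0.26 in the muscle IP. In total RNA their medians ran from 43.4 normalized counts per kilobase for ttr-40 to 111 for ttr-49, apart from ttr-44 at 416. In the intestine IP ttr-40 had 578, 845 and 265 normalized counts, against 22.9, 22.6 and 9.58 in total RNA, a log2 ratio of 4.80 ± 0.63. Right beside it on chromosome V, ttr-49 had 2434, 1032 and 1185 in the intestine IP, against 82.5, 51.8 and 34.9 in total RNA, or 4.73 ± 0.49. Neither gene's groups overlapped in intestine, whereas in muscle ttr-40 had 16.4, 23 and 25.5 in the IP, against 43.1, 22 and 17.9 in total RNA, with the groups overlapping.

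The ratio was 4.58 ± 0.68 for ttr-44 and 4.43 ± 0.35 for ttr-37 in the intestine IP. The lowest was ttr-23, with 151, 194 and 406 normalized counts in the intestine IP, against 18.1, 32.9 and 75.6 in total RNA, a ratio of 2.64 ± 0.68. Its call was the only one of the 12 that did not hold under every alternative tried.

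Members called lower in the intestine IP were ttr-2, ttr-5, ttr-16, ttr-17, ttr-18 and ttr-50, between -2.35 and -1.44. The muscle member ttr-16 had 1793, 2267 and 1785 normalized counts in the intestine IP, against 4669, 7523 and 4584 in total RNA, a ratio of -1.49 ± 0.30 with no overlap. For ttr-5 the intestine IP held 23.4, 41.1 and 148, against 174, 279 and 415 in total RNA, or -2.35 ± 0.73. The lower calls depended on the libraries used: 0 members were called lower without replicate 1 and 3 without replicate 3. With the replicate number as a block 11 were lower, and without intestine IP replicate 2 also 11. Over all genes, 6 of 13711 were lower without replicate 1 and 524 of 13071 without replicate 3. With the block 2891 of 13629 genes were lower, and without intestine IP replicate 2 1795 of 13686. Scaling to an equal sum, which moved the median of all genes by -1.15, gave 11 higher and 24 lower. Over all 13629 genes, 1509 were then higher and 5484 lower.

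Set directly against each other over 12 libraries, muscle and intestine differed for 15 of 49 members. The muscle ratio exceeded the intestine ratio for 9 members, 18.4% against 11.9% of all genes, and was below it for 6, 12.2% against 12.4%. The 9 were the same members that were called higher in muscle and not in intestine. Their differences ran from 5.13 for ttr-47 to 8.48 ± 0.85 for ttr-5, with 8.19 ± 0.45 for ttr-16, 8.10 ± 0.41 for ttr-17 and 7.80 ± 0.58 for ttr-6. The 6 were the 5 intestine members, between -5.97 ± 0.95 for ttr-44 and -3.61 for ttr-23, and ttr-46. Without replicate 1 the difference of ttr-16 was 8.79 and that of ttr-6 was 8.39, while ttr-23, at -2.55, and ttr-46, at -2.42, lost their calls, which left 4 members lower.

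**Figure D2:**
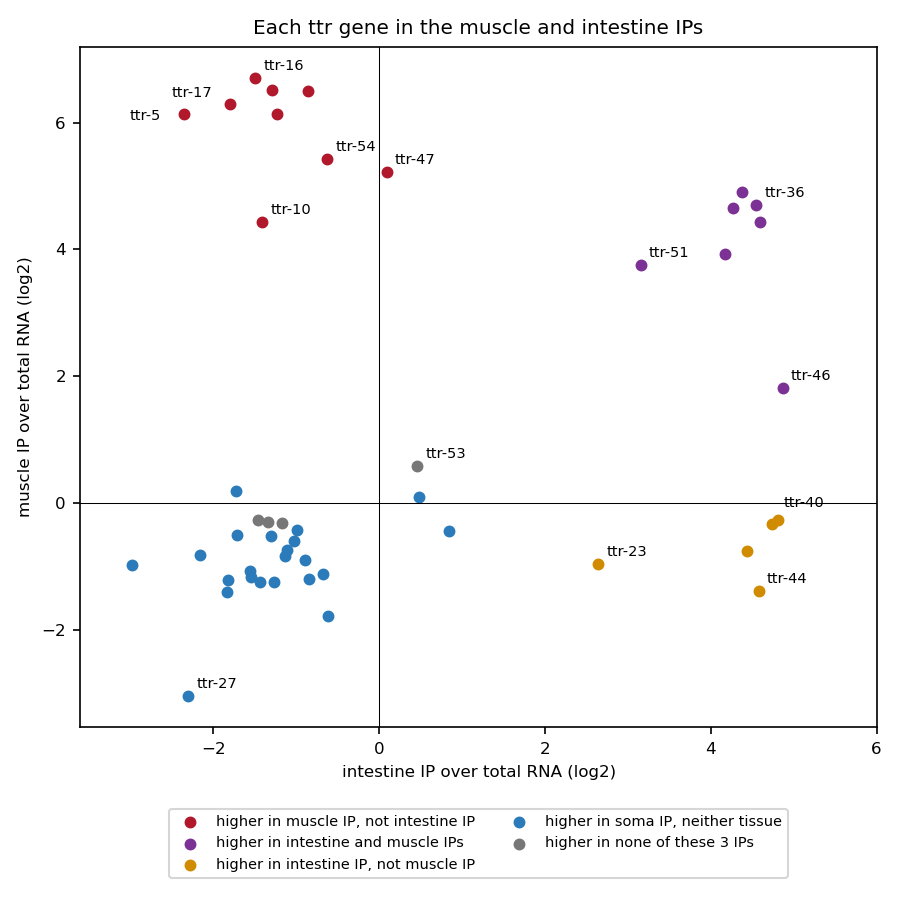
Muscle IP ratio against intestine IP ratio (log2 of IP over total RNA) for each ttr gene tested in both tissues, 1 point per gene, coloured by class. The 9 muscle members sit at the upper left, between 4.43 and 6.70 on the muscle axis, the 5 intestine members at the lower right, and ttr-46 below the other members that were higher in both.

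The member with the highest ratio in both neuronal IPs was ttr-39. In the neurons B IP, 14 of 50 members were called higher, 28.0% against 38.7% of all genes, and 27 were called lower, 54% against 32.6%. In the neurons A IP, 1 of 48 was called higher, 2.08% against 15.3%, and 21 lower, 43.8% against 12%. The median ratio of the members was -1.13 in neurons B, against 0.10 for all genes, and -2.87 in neurons A, against -0.80.

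The member called higher in neurons A was ttr-39 (chromosome IV, 10088367 to 10089877, minus strand), the gene whose promoter marks D-type motor neurons. It had 13496, 7433 and 5702 normalized counts in the neurons A IP, against 20.9, 27.8 and 24.0 in total RNA, a log2 ratio of 8.37 ± 0.54. In the neurons B IP it had 13266, 15249 and 20135, against 82.3, 52.4 and 35.5 in total RNA, or 8.19 ± 0.32. Every neuronal IP library was far above every total RNA library in both strains. These were the highest ratios of any member in any of the 9 fractions.

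The gene took 51.7%, 48.0% and 25.1% of the family's normalized counts in the neurons A IP and 18.5%, 16% and 17.3% in the neurons B IP, against 0.0442%, 0.0830% and 0.0295% in neurons A total RNA. In the neurons B IP ttr-46 took 15.53%, 23.97% and 27.75%, and per kilobase ttr-46 was the most abundant member there. In intestine ttr-39 had 8.55, 47.2 and 3.97 normalized counts in the IP, against 22.8, 23.5 and 29.5 in total RNA, with the groups overlapping. In muscle it had 21.2, 46.5 and 22.6 in the IP, against 38.3, 52.7 and 27.2 in total RNA, again overlapping. The muscle ratio of ttr-39 was lower than its neurons B ratio by 8.61 ± 0.54 and the intestine ratio lower by 9.18 ± 0.98 on the log2 scale. That second difference was -10.18 without replicate 2 and -7.91 without replicate 3. The neurons A call did not hold without replicate 1, with a ratio then of 7.92, where 0 of all 14342 genes were called higher. The exons of ttr-39 overlap those of ndc-80, a kinetochore gene on the opposite strand, whose own ratios were -1.86 in neurons A and -2.05 in neurons B.

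**Figure D3:**
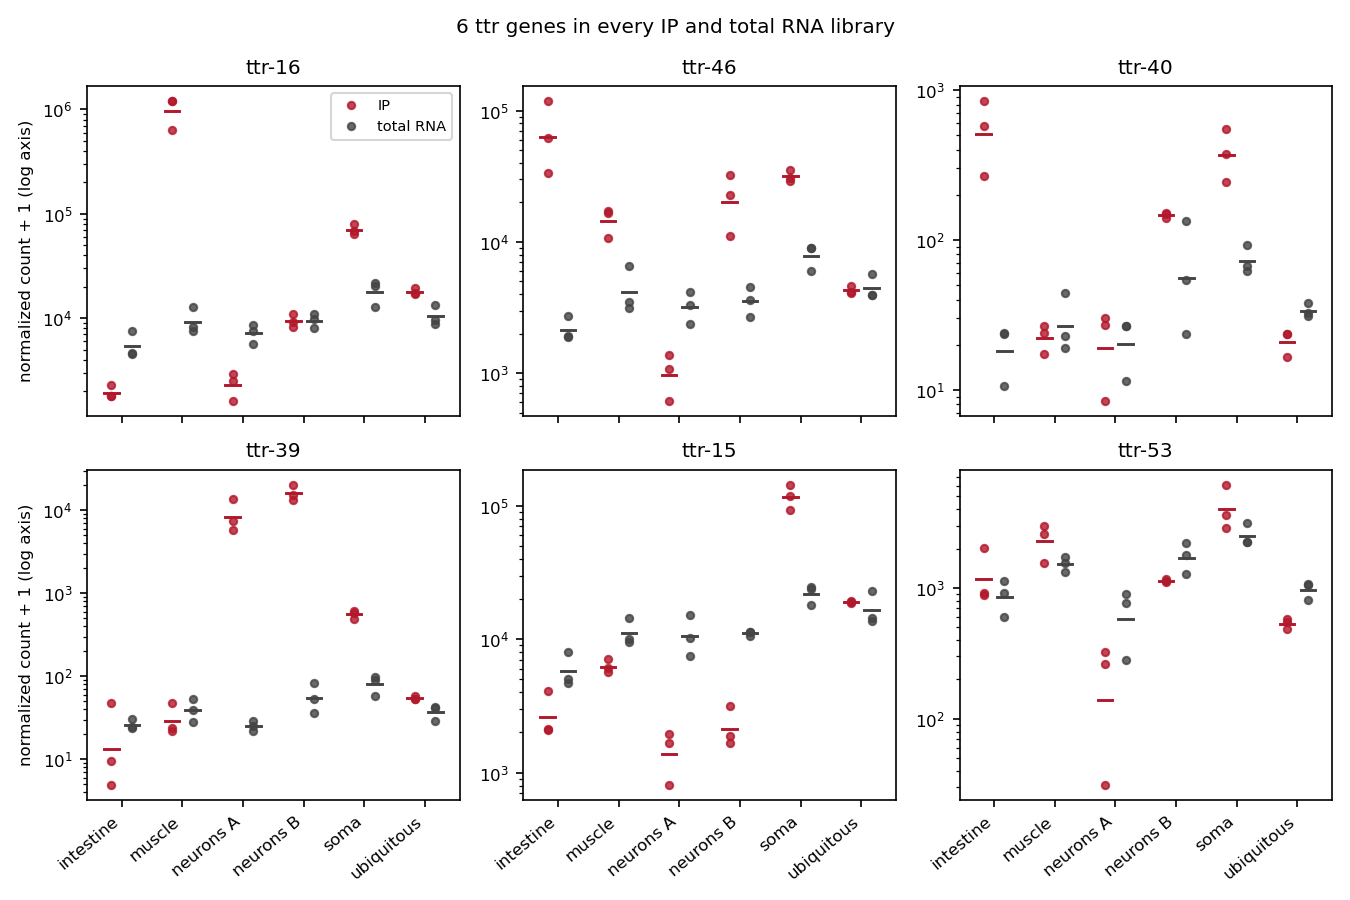
Normalized count + 1 (log axis) of 6 ttr genes in every IP (red) and total RNA (grey) library of the 6 IP experiments, 1 point per library with a bar at the mean of the log2 values. The IP stands far above total RNA for ttr-16 in muscle, ttr-46 and ttr-40 in intestine and ttr-39 in both neuronal strains, and ttr-15 stands above its total RNA in the soma IP.

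In neurons B, the other members called higher were ttr-52, ttr-5 and 11 of the 12 members called higher in the intestine IP, which is 11 of 14 of the neurons B members. Of the members tested in both IPs 23.4% were higher in both, against 11.9% of all genes. Of those 11, ttr-46 was the highest, with 11116, 22885 and 32282 normalized counts in the neurons B IP, against 2679, 4497 and 3619 in total RNA, a log2 ratio of 2.52 ± 0.38. For ttr-44 the neurons B IP held 3440, 3286 and 2176, against 1043, 577 and 443 in total RNA, or 2.17 ± 0.33. The groups did not overlap for these genes. The 11 lay between 0.93 (ttr-51) and 2.52, beside a median ratio of 1.15 over the intestine markers in the same IP, and the part of intestine RNA in these calls was not tested. Under equal-sum scaling the calls of ttr-51 (0.53), ttr-40 (1.00) and ttr-49 (0.89) were lost. They were lost without replicate 2 as well, at 0.87 for ttr-51, 0.77 for ttr-40 and 0.82 for ttr-49, and so was that of ttr-36, at 1.16 without replicate 2 and 0.87 without replicate 3. Without replicate 3, ttr-40 (1.42) and ttr-49 (1.43) also lost their calls, and ttr-40 was at 2.02 without replicate 1.

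In neurons A, where 0 of 11 intestine markers were higher and 5 were lower, the 7 members shared by intestine and muscle lay between -3.19 and -1.72. The 5 that were higher in intestine and not in muscle lay there between -4.62 (ttr-37) and 1.59 (ttr-44), with ttr-37 and ttr-23 called lower. For ttr-44 the neurons A IP held 269, 438 and 792 normalized counts, against 201, 175 and 96.6 in total RNA, with no overlap between the groups, yet the ratio of 1.59 ± 0.66 was not called. R11G10.3, which overlaps ttr-44 on the opposite strand, had a ratio of 1.28 in neurons A and 4.75 in neurons B.

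The neurons B ratios were below the intestine ratios for most of these genes. The intestine ratio exceeded the neurons B ratio for 16 of 49 members, 32.7% against 11.8% of all genes, with 3.44 ± 0.65 for ttr-49 the largest difference, and was below it for 4, 8.16% against 18.7%. Those 4 were ttr-39, ttr-52 (-5.45 ± 1.19), ttr-5 (-4.04 ± 0.79) and ttr-16 (-1.47). Among them, ttr-52 passed the minimum mean only through its neurons B IP libraries and was untested in intestine alone. Higher differences numbered 4 without replicate 1 and 9 without replicate 2, beside 756 of 15277 and 1206 of 15401 over all genes. Without replicate 1, 2 were lower, beside 1969 of all genes, and ttr-52, at -5.38, lost its call. With libraries scaled to an equal sum, 9 were higher and 6 lower, beside 678 and 3387 of all 15357 genes.

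Among the members that were higher in muscle and not in intestine, ttr-5 was the one also called higher in neurons B. It had 1418, 1698 and 2044 normalized counts in the neurons B IP, against 617, 459 and 510 in total RNA, a log2 ratio of 1.69 ± 0.24 with no overlap. Of the other 8, 6 were called lower in neurons B, beside 32.6% of all genes tested there. The share among all genes higher in muscle and not in intestine was not computed. There ttr-17 had 233, 160 and 172 in the IP, against 2279, 1100 and 1394 in total RNA, or -3.02 ± 0.31. The muscle member ttr-16 was not called, with 8208, 9204 and 10928 in the neurons B IP, against 8067, 10912 and 9756 in total RNA, groups that overlap.

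The muscle ratio exceeded the neurons B ratio for 30 of 50 members, 60.0% against 29.8% of all genes, and was below it for 6, 12% against 27%. The largest differences were 9.32 ± 0.43 for ttr-17, 8.90 ± 0.47 for ttr-24 and 8.33 ± 0.58 for ttr-25. Among the 6 lower, ttr-52 passed the minimum mean only through its neurons B IP libraries and was untested in muscle alone. Under equal-sum scaling 16 were higher and 8 lower, beside 1161 and 5836 of all 15933 genes. Without replicate 2 the counts were 18 higher and 3 lower, beside 2267 and 3243 of all 15971 genes. Without replicate 3, 3 were lower, beside 3267 of all 15923 genes.

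The members with the lowest neurons B ratios were not called higher in any tissue IP. There ttr-27 had 9.94, 0 and 15.2 normalized counts in the IP, against 103, 72.9 and 117 in total RNA, a ratio of -4.11, which was -3.06 without replicate 2 and -4.73 without replicate 3. For ttr-21 the IP held 39.6, 11.2 and 17.3, against 504, 176 and 279 in total RNA, or -3.81 ± 0.55. The ratio was -3.18 ± 0.46 for ttr-20, or -2.53 without replicate 1, and -3.09 ± 0.33 for ttr-42, with all neuronal libraries below all total RNA libraries for both. In neurons A the lowest was ttr-42, with 24.2, 14 and 0 in the IP, against 279, 177 and 374 in total RNA.

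The neurons A lower calls depended on the libraries used, as did those over all genes. Their ratios were -5.20 ± 1.35 for ttr-42, -4.88 ± 1.16 for ttr-17 and -3.65 ± 0.81 for ttr-26. Leaving out neurons A replicate 3, in which 25 members were listed at 0 in the IP, gave -3.52 for ttr-42 and -3.72 for ttr-17. Lower calls numbered 21 with all libraries, 0 without replicate 1, 0 without replicate 2, 36 without replicate 3, 35 without the IP library of replicate 3 alone and 34 with the replicate number as a block. Over all genes, lower calls were 1738 of 14483 with all libraries, 0 of 14342 without replicate 1 and 0 of 14300 without replicate 2. They were 5003 of 14492 without replicate 3, 3755 of 14586 without its IP library alone and 3295 of 14483 with the block. Higher calls of members numbered 0 without replicate 1 and 2 without replicate 3, beside 0 and 4490 over all genes.

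The members with published roles were scarce or fell outside the tissue IPs. The corpse-engulfment bridge ttr-52 had 87.2, 108 and 108 normalized counts in the neurons B IP, against 10.6, 4.51 and 17.8 in total RNA, a log2 ratio of 3.25 ± 0.54 with no overlap. In neurons A it had 13.9, 20.3 and 0 in the IP, against 0.712, 1.37 and 0 in total RNA, under the minimum mean of 10. In embryos the endoderm is a known source of TTR-52; in these adults the intestine IP held 0, 0 and 2.62, against 5.31, 1.78 and 18.9 in total RNA. In the soma IP, the ubiquitous IP and all gradient libraries ttr-52 was at or below 13 normalized counts and untested.

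The axon fusion gene ttr-11 was too scarce to test in the tissue IPs. It was listed at 0 in all neurons A IP libraries, against 13.5, 4.92 and 36.7 normalized counts in total RNA, and it had 4.56, 0 and 2.03 in the neurons B IP, against 3.75, 0 and 0.558 in total RNA. In the wild-type polysomes it had 21, 16.8 and 22.9, against 11.3, 13 and 13.5 in total RNA, a ratio of 0.64 ± 0.34 that was not called although the groups did not overlap.

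The dopamine neuron gene ttr-33 was called lower in both neuronal IPs. It had 30.1, 20.5 and 36 normalized counts in the neurons B IP, against 205, 101 and 130 in total RNA, a log2 ratio of -2.26 ± 0.43, and -4.30 ± 1.20 in neurons A, a call lost without replicate 1 (-4.16) and without replicate 2 (-5.07). In the muscle IP its ratio was -0.98 ± 0.27. In the soma IP it had 1090, 683 and 1912, against 286, 278 and 373 in total RNA, or 1.86 ± 0.38, and it was higher in the wild-type polysomes at 1.23 ± 0.22. Its exons overlap txt-5 on the same strand, whose soma ratio was 1.87, so reads of the pair may have been split by the counting.

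The soma IP held most of the family above total RNA. There 42 of 52 members tested were called higher, 80.8% against 25.1% of all genes, and 1 was called lower, 1.92% against 32.7%. The median ratio of the members was 1.79, against -0.09 for all genes, and in 43 members, 82.7% of those tested against 31.5% of all genes, every soma IP library was above every total RNA library. The family made up 0.924%, 0.747% and 1.22% of all normalized counts in the soma IP, against 0.298%, 0.273% and 0.162% in total RNA. Beside it, 8 of 9 epidermis, 6 of 10 muscle, 6 of 11 intestine, 5 of 11 neuronal and 5 of 7 tested pharynx markers were higher, and 10 of 10 germline and 6 of 6 sperm markers were lower; their part in the members' ratios was not tested.

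The most abundant soma member was ttr-15 (chromosome III, 10337847 to 10339440, plus strand), with 118859, 93240 and 143273 normalized counts in the soma IP, against 23709, 24745 and 17974 in total RNA, a log2 ratio of 2.41 ± 0.25. The soma IP libraries were all above their total RNA. In the intestine IP ttr-15 had a ratio of -1.13 ± 0.37 that was not called, and its ratios were -0.83 in muscle, -2.93 in neurons A and -2.37 in neurons B, all called lower. It is 1 of 22 members that were higher in the soma IP and in neither the muscle nor the intestine IP, with soma ratios between 1.14 and 2.80 and a median of 1.85. Of these 22, 18 were called lower in neurons B and 11 in muscle, beside 32.6% and 13.1% of all genes tested there. The share among all genes higher in the soma IP and in neither tissue was not computed. Epidermis, pharynx and the other somatic cells had no IP of their own in these experiments, so for most of these members the cells behind the ratios cannot be told apart. An exception among the 22 is ttr-39, which was called higher in both neuronal IPs.

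The highest soma ratio belonged to ttr-39, with 486, 615 and 575 normalized counts in the soma IP, against 95.8, 89.0 and 57.4 in total RNA, or 2.80 ± 0.33. Next was ttr-30, with 1768, 1007 and 1963 in the soma IP, against 256, 241 and 225 in total RNA, or 2.65 ± 0.33, and ttr-7, with 1617, 845 and 1260 against 272, 231 and 126, or 2.58 ± 0.38. The ratio of the muscle member ttr-16 was 1.99 ± 0.27 and that of ttr-46 was 2.02 ± 0.26. For each of these genes the soma IP and total RNA libraries stayed apart. Without replicate 3 the soma calls of ttr-25, ttr-27 and ttr-42 were lost, with ratios of 0.68, 1.06 and 0.57.

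One member went the other way. In the soma IP ttr-50 (chromosome IV, 11640047 to 11641015) had 277, 897 and 1143 normalized counts, against 1755, 2611 and 3269 in total RNA, a log2 ratio of -1.91 ± 0.49. It was also lower in intestine at -1.46 and in neurons B at -2.11, but was not called in the wild-type polysomes, at 0.14. The soma call held under every alternative tried, and 2 members were called lower without replicate 3.

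In the ubiquitous IP, which draws on all tissues, few members differed from total RNA. Of 52 tested, 4 were called higher, 7.69% against 16.9% of all genes, and 4 lower, 7.69% against 20.4%, with a median ratio of 0.07 against 0.01. Among the higher was ttr-16, with 17028, 17581 and 19554 normalized counts in the ubiquitous IP, against 8806, 9543 and 13389 in total RNA, a log2 ratio of 0.79 ± 0.19. Among the lower were ttr-27, with 78.4, 56.4 and 90.1 against 205, 118 and 203, or -1.20 ± 0.27, and ttr-20, with 129, 133 and 108 against 166, 208 and 325, or -0.86 ± 0.25. The groups did not overlap for these members.

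None of these 8 calls held under all alternatives. Without replicate 1, 1 was higher and 1 lower, beside 1093 and 1527 of all 13841 genes. Without replicate 2, 0 were higher and 1 lower, beside 823 and 1214 of 13881. Without replicate 3, 9 were higher, beside 2842 of 13826. Equal-sum scaling, which moved the median of all genes by 0.24, gave 8 higher and 0 lower, beside 2227 and 1032 of 13853.

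In the gradients most members were called higher. In the ubiquitous polysomes 46 of 54 members were called higher, 85.2% against 28.4% of all genes, and 1 lower, 1.85% against 30.3%, with a median ratio of 1.57 against 0.01. In the wild-type polysomes 43 of 54 were higher, 79.6% against 33.6%, and 1 lower, 1.85% against 33.9%, with a median of 1.27 against 0.02. In the ubiquitous strain's pooled fractions, which also hold 60S subunits and 80S monosomes, 39 of 53 were higher, 73.6% against 20.6%, and 1 lower, 1.89% against 23.1%, with a median of 0.98 against 0.00. Some tested members had a total RNA mean under 10: 2 in the ubiquitous polysomes, 2 in the pooled fractions and 1 in the wild-type polysomes. Such members passed the minimum mean only through the fraction, and they were not left out of these counts. The difference between the ubiquitous IP and the gradients was not tested. Germline markers were called lower in the ubiquitous IP and the gradients alike, 7 of 10 in the IP (median -0.92), 10 of 10 in the ubiquitous polysomes, 9 of 10 in the wild-type polysomes and 6 of 10 in the pooled fractions. All 6 sperm markers were higher in each gradient experiment, and 0 in the ubiquitous IP. In the wild-type polysomes 10 of 10 muscle, 10 of 11 intestine and 8 of 9 epidermis markers were higher. The same lists had 4, 8 and 5 higher in the ubiquitous polysomes and 3, 5 and 3 in the pooled fractions. In the ubiquitous IP 3 muscle markers were higher and 3 lower, 2 intestine markers were higher and 3 lower, and 1 epidermis marker was higher. The part of these markers' cells in the members' ratios was not tested.

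Of the members called higher, 40 were higher in the polysomes of both strains, 40 of 46 in the ubiquitous strain and 40 of 43 in wild type, which is 74.1% of the members tested in both, against 25.5% of all genes. In all 3 gradient experiments 36 were higher, 67.9% against 17.1%. With all libraries kept, the higher calls that held under every other setting were 39 of 46 in the ubiquitous polysomes, 32 of 43 in the wild-type polysomes and 34 of 39 in the pooled fractions. In the wild-type polysomes ttr-6 had 2317, 2404 and 1849 normalized counts, against 572, 502 and 511 in total RNA, a log2 ratio of 2.04 ± 0.13. There ttr-16 had 19637, 19351 and 13894, against 4314, 4108 and 4556 in total RNA, or 2.01 ± 0.14. The ratio was 2.02 ± 0.16 for ttr-5 and 1.94 ± 0.12 for ttr-41. The polysome libraries were above all total RNA libraries for all of them.

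In the ubiquitous polysomes ttr-32 had 645, 331 and 432 normalized counts, against 137, 81.8 and 129 in total RNA, a log2 ratio of 1.99 ± 0.29, and its chromosome III neighbour ttr-8 had 437, 295 and 337, against 115.5, 60.3 and 110.4, or 1.93 ± 0.28. The ratio there was 1.90 ± 0.26 for ttr-41 and 1.86 ± 0.28 for ttr-15. In the pooled fractions ttr-10 had 136, 157 and 176, against 75.4, 63.6 and 44.6 in total RNA, or 1.36 ± 0.22. The ratio was 1.33 ± 0.19 for ttr-42, 1.22 ± 0.16 for ttr-24 and 1.21 ± 0.27 for ttr-8 in the pooled fractions. Genes of the muscle (ttr-10, ttr-24), shared (ttr-41) and soma (ttr-8, ttr-15, ttr-32, ttr-42) classes are among these.

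The one member called lower in the gradients was ttr-53 (chromosome IV, 10158038 to 10158974, plus strand), and it was lower in all 3. It had 654, 892 and 997 normalized counts in the ubiquitous polysomes, against 1525, 1320 and 1602 in total RNA, a log2 ratio of -0.82 ± 0.20. In the wild-type polysomes it had 880, 869 and 1161, against 1804, 1668 and 1761, or -0.86 ± 0.13. In the pooled fractions it had 903, 1111 and 1054, against 1801, 1571 and 1754, or -0.74 ± 0.14. All 9 gradient libraries lay below all total RNA libraries of their own experiment.

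In the ubiquitous IP ttr-53 was lower too, with 483, 544 and 578 normalized counts against 1053, 1063 and 804 in total RNA, a log2 ratio of -0.85 ± 0.16; that call was lost without replicate 1 (-0.72), without replicate 2 (-0.80) and under equal-sum scaling. In the other IPs it was not called, with 0.67 ± 0.33 in soma, 0.58 ± 0.26 in muscle, 0.46 ± 0.42 in intestine, -0.59 ± 0.24 in neurons B and -2.06 ± 1.03 in neurons A. The muscle value turned to -0.81 under equal-sum scaling. Its neighbour ttr-54, a muscle member, was called higher in all 3 gradients. Under equal-sum scaling its calls were lost in the pooled fractions (0.71, against 0.70) and in the wild-type polysomes (0.32, against 0.69). Both were also lost without replicate 3, at 0.41 in the pooled fractions and 0.46 in the wild-type polysomes, and in the authors' test (both 0.71). The pooled call was lost as well with no filter, with the replicate block and without replicate 2 (0.69). The wild-type call was lost as well without replicate 1 (0.76).

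**Figure D4:**
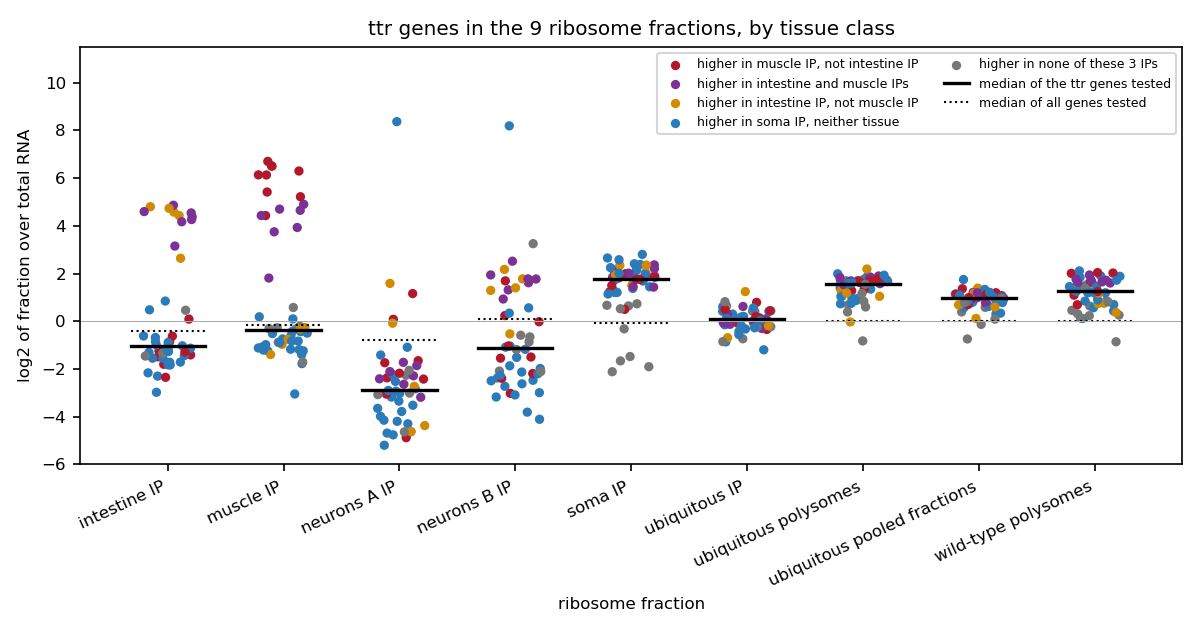
Log2 ratios of the ttr genes tested in each of the 9 ribosome fractions, 1 point per gene in its class colour, with the median of the members (solid bar) and of all genes tested (dotted bar). The colours follow the calls in the intestine, muscle and soma IPs, so they part there by construction; the medians are 1.79 in the soma IP, 1.57 and 1.27 in the polysomes and 0.07 in the ubiquitous IP.

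Members lie on all chromosomes, with 22 on V, 12 on X, 10 on IV, 9 on III, 3 on I and 2 on II. Some sit close together: 29 of the 58 lie in 12 runs of neighbours with gaps of at most 10000 bases. In 9 of the 12 runs all members fell in 1 class of the tissue calls: 3 runs were of the soma class, 2 of members higher in both tissues, 2 of members higher in none (with ttr-11, ttr-55, ttr-57 and ttr-58 tested in none of the 3 IPs), and 1 each of muscle and intestine members. The share among neighbouring genes in general was not computed. The muscle pair ttr-16 and ttr-17 spans chromosome IV 11063530 to 11067026, the intestine pair ttr-40 and ttr-49 spans chromosome V 9354521 to 9356515, and the pairs shared by both tissues are ttr-51 and ttr-45 (IV, 13250655 to 13255538) and ttr-36 and ttr-35 (X, 6510927 to 6512918).

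The 3 mixed runs were ttr-3, ttr-2 and ttr-1, then ttr-54 and ttr-53, and ttr-24, ttr-25 and ttr-26. In the last, ttr-24 and ttr-25 were muscle members at 6.51 and 6.14, and ttr-26 was higher in the soma IP only. Neighbouring paralogues can share reads where their sequences are alike, which was not examined here. The exons of 17 members overlap another coding gene, 4 on the same strand and 13 on the opposite strand only.

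A list of 15 genes that act with the characterised TTR proteins, or share their fold, was followed beside the family, and 14 were tested. The engulfment receptor ced-1 was higher in the muscle IP at 1.298 and was not called in any other IP. The secreted lipid-binding protein gene nrf-5, which works with ttr-52 on dying cells, was higher in muscle at 5.28 and lower in intestine (-1.49), neurons A (-3.36) and neurons B (-2.51). The beta integrin gene pat-3 was higher in muscle at 2.50, and the GTPase gene ced-10 at 0.75, which made 4 of 14 higher and 1 lower in that IP, beside 23.1% and 13.1% of all genes.

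The fusogen gene eff-1, needed for axon fusion, was higher in the neurons A IP at 4.92 and the neurons B IP at 3.36, where 3 of 14 were higher and 6 lower, beside 38.7% and 32.6% of all genes. The hydroxyisourate hydrolase homologue R09H10.3 was higher in the intestine IP at 4.95 and in neurons B at 2.45, and lower in muscle at -0.66. In the wild-type polysomes 2 of the 14 were higher, nrf-5 at 1.17 and R09H10.3 at 1.34, and 8 were lower, among them ced-5 at -1.12 and ced-7 at -1.17, beside 33.6% and 33.9% of all genes. In the soma IP 2 were higher and 5 lower, beside 25.1% and 32.7%.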

How the data were processed

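The members and all gene lists were chosen with earlier results of these data known. Per the submitters' processing notes, the tools named were kallisto 0.46.1, DESeq2 1.30.1 and R 4.0.4 with build ce11; strand use and how they were joined are not given in the sources used here. Per the file headers, the deposited tables hold the authors' normalized counts per library (a normalized signal, scaled within each table) and the authors' own test per gene: a log2 fold change with its standard error, a Wald score, a p-value with its adjusted p-value, and −log10 of the adjusted p-value. Whole reads could not be recovered, so depth per library is unknown and precision rests on the 3 libraries per group. A p-value here covers only the variation among those libraries, which may be technical.

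Symbols, exons and coordinates came from Ensembl release 115 (WBcel235). Each of the 9 experiments was fitted on its own with limma 3.58.1 (trend, R 4.3.3) on log2(normalized count + 1), over 6 libraries and all genes with a mean of at least 10, without a replicate block; Benjamini-Hochberg adjustment ran over all genes tested, at 0.05. Such fold changes understate those of low genes. Tissue differences used an interaction term over 12 libraries. The design files assumed either counts or normalized values, and the test for normalized values was used. Values are given for the 4 members with the largest called ratios per experiment at a mean of at least 100, the 6 most abundant per kilobase, the 4 largest called tissue differences and ttr-52, ttr-11 and ttr-33; ttr-44, ttr-23, ttr-37, ttr-47, ttr-54, ttr-35, ttr-36, ttr-45, ttr-18, ttr-34, ttr-50 and the neighbouring and list genes were named after their values were seen.

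Replicate numbers in the fraction and total RNA libraries of an experiment were checked for pairing: every same-number pair deviated together above 0.1 in intestine (lowest correlation 0.304), neurons A (0.313) and the ubiquitous IP (0.187), and not in every pair elsewhere. Blocked counts of lower calls are given for intestine, neurons A and the soma IP, and the call of ttr-54 lost with the block is named. Other changes that the block made to results of named genes are not listed, so a result without a blocked value may also depend on pairing. Alternatives were other pseudocounts (0.5 and 5), no filter, equal-sum scaling, the block, leaving out replicates or libraries, and the authors' test. The fits were tested on simulated data.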

Additional observations from a re-analysis of the deposited data

Results flagged for a closer look

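The results below stand out because the ratio of IP over total RNA differed between tissues in the interaction fit over 12 libraries, for the 4 members with the largest called difference in each comparison. For muscle minus intestine these were ttr-5 at 8.48, ttr-16 at 8.19, ttr-17 at 8.10 and ttr-6 at 7.80 on the log2 scale, each with 3 of 3 muscle IP libraries above total RNA. For muscle minus neurons B they were ttr-17 at 9.32, ttr-24 at 8.90, ttr-25 at 8.33 and ttr-39 at -8.61. For intestine minus neurons B they were ttr-39 at -9.18, ttr-52 at -5.45, ttr-5 at -4.04 and ttr-49 at 3.44. The gene ttr-52 entered that fit only through its high neurons B IP libraries and was untested in intestine alone. The comparisons share libraries, so ttr-39 appears in more than 1 through the same neurons B values.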

How the results depend on the processing

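Depth is unknown, and precision rests on 3 libraries per group. Counts of members called in the tissue, soma and ubiquitous IPs and the gradients are compared here with those of the report, and the cause of a change was not tested. With libraries scaled to an equal sum, lower calls were 24 in intestine, 33 in muscle and 0 in the ubiquitous IP. Over all genes they were 5484 of 13629, 10452 of 14681 and 1032 of 13853. Higher calls were then 8 in the ubiquitous IP, 16 for muscle minus neurons B and 9 for intestine minus neurons B. The median of all genes moved by -1.37 in muscle, -1.15 in intestine, -0.40 in neurons B and -0.43 in neurons A. It moved by 0.24 in the ubiquitous IP, -0.26 in the ubiquitous polysomes and -0.37 in the wild-type polysomes. With the replicate block, lower calls were 11 in intestine, 34 in neurons A and 2 in the soma IP, and no other count moved by over 1.5 times. The same-number correlations in soma were 0.510, 0.081 and 0.321, so not every pair there was above 0.1. In the authors' deposited table, lower calls were 16 in intestine, 40 in neurons A, 2 in the soma IP and 2 in the ubiquitous polysomes. With no filter, lower calls were 2 in the ubiquitous polysomes and 2 in the wild-type polysomes. Without intestine IP replicate 2, 11 were lower in intestine, and without neurons A IP replicate 3, 35 were lower in neurons A.

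Leaving out 1 replicate number at a time gave lower counts of 0 to 11 in intestine (the upper value from leaving out the IP library of replicate 2 alone), 6 to 14 in muscle, 0 to 36 in neurons A, 1 to 2 in soma and 1 to 4 in the ubiquitous IP. Higher counts were 0 to 2 in neurons A and 0 to 9 in the ubiquitous IP. Over all genes, lower calls then ran from 6 to 1795 in intestine and from 0 to 5003 in neurons A. Counts were 18 to 30 higher and 3 to 7 lower for muscle minus neurons B, 4 to 12 higher and 2 to 4 lower for intestine minus neurons B, and 9 to 10 higher and 4 to 6 lower for muscle minus intestine. One called value had the opposite sign to the reported one, ttr-53 in muscle, at -0.81 under equal-sum scaling against 0.58. Signs of uncalled values turned as well when a replicate was left out, such as ttr-40 in muscle (-0.64 to 0.28), ttr-11 in the ubiquitous IP (-0.35 to 0.85) and ttr-21 in the wild-type polysomes (-0.20 to 0.78).

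Higher calls that held under every alternative, with a replicate left out or not, were 11 of 12 in intestine, 15 of 16 in muscle, 0 of 1 in neurons A, 10 of 14 in neurons B, 36 of 42 in soma, 38 of 46 in the ubiquitous polysomes, 30 of 39 in the pooled fractions and 32 of 43 in the wild-type polysomes. Lower calls that held were 0 of 6 in intestine, 5 of 12 in muscle, 0 of 21 in neurons A, 21 of 27 in neurons B and 1 of 1 in soma and in each gradient experiment. In the ubiquitous IP 0 of 4 higher and 0 of 4 lower calls held. For the tissue differences, 9 of 9 higher and 4 of 6 lower held for muscle minus intestine, 16 of 30 higher and 3 of 6 lower for muscle minus neurons B, and 4 of 16 higher and 2 of 4 lower for intestine minus neurons B.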
